A study of Homo sapiens with 4 samples.

Results

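The AKT kinases and the genes that set their activity were examined in MDA-MB-231 cells after pharmacological blockade of TEAD. The 8 genes, taken by symbol from the 48162 genes of the deposited table, were the kinases AKT1 and AKT2, the AKT-activating kinase PDPK1, RICTOR of mTOR complex 2, the lipid phosphatases INPP4B and INPPL1, and the protein phosphatases PHLPP1 and PHLPP2. All 8 were found and all 8 passed the filter on low expression. MDA-MB-231 is an established human triple-negative breast cancer line with a mesenchymal character. The cells received vehicle control or MGH-CP1 for 24 h, with 2 RNA-seq libraries per condition (Control and MGH-CP1), and no other agent or genetic change is given for either condition. MGH-CP1 is a small molecule that occupies the lipid pocket of TEAD transcription factors and blocks their autopalmitoylation. The sample labels give its dose as 10 µM, whereas the methods of the study print the same figure in millimolar. The study asked what TEAD inhibition does to the transcriptome and to AKT signaling.

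AKT is recruited to the membrane by the phosphoinositides that PI3K makes, where PDPK1 phosphorylates its activation loop and mTOR complex 2 its hydrophobic motif. Lipid phosphatases such as INPPL1 (also called SHIP2) and INPP4B convert or remove these phosphoinositides, and PP2A and the PHLPP phosphatases dephosphorylate AKT itself. In breast cancer the pathway is known for its frequent activation and for its role in cell survival. Transcript levels, as measured here, do not report the phosphorylation or the activity of AKT.

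RNA-seq values were FPKM, the fragments counted on a gene divided by its deposited length and by the library total. Any comparison of levels between different genes therefore rests on those deposited lengths, which were not checked against the transcripts expressed here. Fragments on genes numbered 25455533 and 25508824 in Control, and 17997221 and 17577930 after MGH-CP1, so depth differed with treatment. The share of mitochondrial transcripts also moved with treatment, from 0.447% and 0.418% in Control to 1.57% and 1.53% after MGH-CP1, and its part in the results was not tested. The 6 genes listed as present in MDA-MB-231 were all detected, at 15.4 to 389 FPKM. Their summed level was 1405 to 1418 FPKM in Control and 1192 to 1219 FPKM after MGH-CP1. Of the 6, 0 were called higher and 2 lower, AXL (log2 difference -0.76, limma adjusted p = 0.000425) and CAV1 (-0.49, limma adjusted p = 0.000100). Of 6 genes listed as low or absent, ESR1, PGR and CDH1 lay under 1 FPKM in every library. EPCAM, GATA3 and ERBB3 were detected, against that list, at up to 16.4 FPKM. The 6 summed to 18.9 to 20.9 FPKM in Control and 20.6 to 23.1 FPKM after MGH-CP1. Of the 3 that were tested, 0 were called lower and 1 higher, ERBB3 (log2 difference 0.42, limma adjusted p = 0.0191). Of 7 markers of other cell types, 6 were found, 1 of them at 0 in every library, and they summed to 3.18 to 3.80 FPKM in Control and 6.02 to 7.60 FPKM after MGH-CP1. Of these, CD14 was called higher (2.11 to 3.68 FPKM, log2 difference 0.59, limma adjusted p = 0.00715), and ALB had 0 fragments in both Control libraries, 3 in MGH-CP1 replicate 1 and 102 (2.56 FPKM) in MGH-CP1 replicate 2. COL1A1 lay at 1.31 to 1.83 FPKM and was not called. PTPRC and VWF stayed under 1 FPKM in every library, and the part of these markers in the results was not tested. Nothing in the sources used here says that the 2 libraries of a condition came from separate cultures, so p-values may measure technical spread.

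Among the 8 genes, INPPL1 rose and PHLPP2 and AKT1 fell after MGH-CP1, while AKT2, PDPK1, RICTOR, INPP4B and PHLPP1 did not pass the test (limma on log2(FPKM + 1), adjusted p under 0.05 over the 12080 genes whose mean FPKM reached 1). Thus 3 of 8 were called, against 50.8% of all genes tested. The single gene called higher stands against a background of 27.1% and the 2 called lower against 23.8%. Both MGH-CP1 libraries lay above both Control libraries for 3 of the genes and below them for 4, where 39.8% and 37.4% of all genes tested did so, and 77.2% did either. With 8 genes, these counts are close to the shares of all genes tested. Their median log2 difference was -0.09, beside 0.01 for all genes tested. In bulk RNA, fewer cells that express a gene and less of its RNA per cell cannot be told apart. An exact permutation test of 2 libraries against 2 reaches at best p = 0.33, so the calls depend on limma's sharing of variance across genes.

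**Figure D1:**
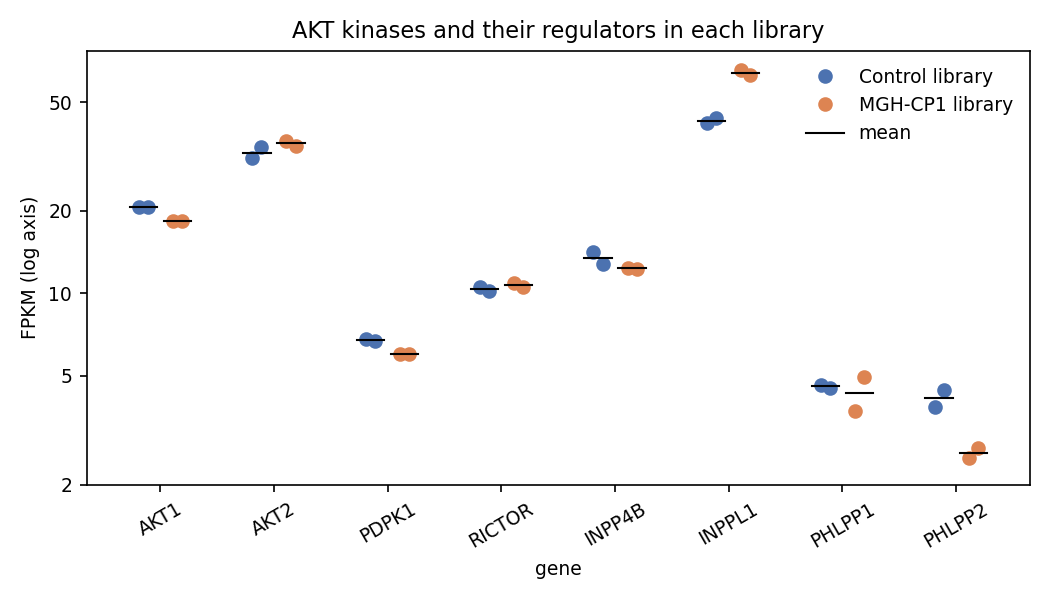
FPKM (log axis) of the 8 genes in each Control and MGH-CP1 library, with a line at the mean of each condition. INPPL1 sat at 41.8 and 43.6 FPKM in Control and at 65.4 and 62.5 FPKM after MGH-CP1, PHLPP2 moved the other way, and PHLPP1 was the gene whose conditions overlapped.

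**Figure D2:**
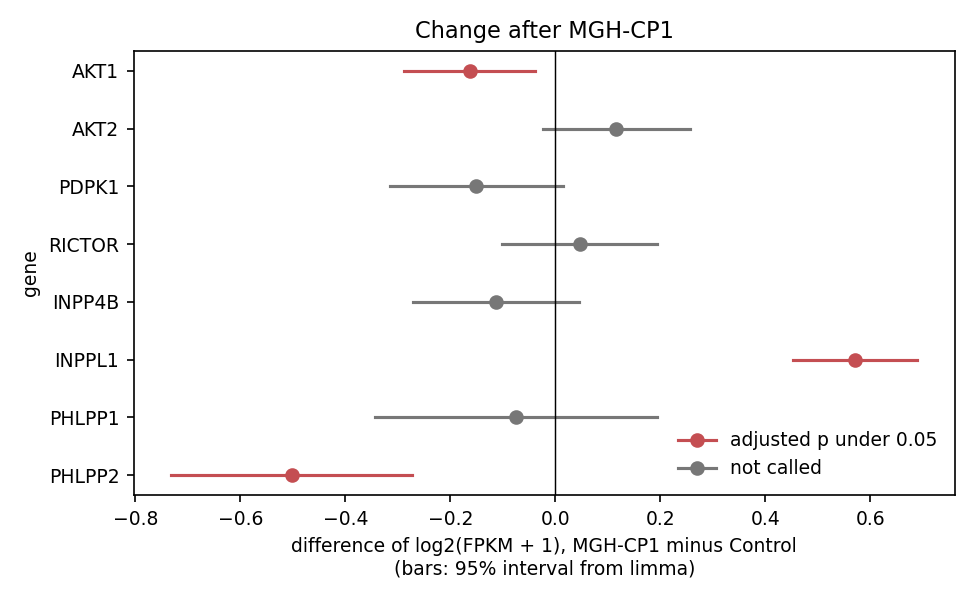
Difference of log2(FPKM + 1), MGH-CP1 minus Control, for the 8 genes (points), with 95% intervals from limma (bars) and genes at an adjusted p under 0.05 in red. INPPL1 lay at 0.57 and PHLPP2 at -0.50, and the intervals of AKT2, PDPK1, RICTOR, INPP4B and PHLPP1 crossed 0.

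The order of the FPKM levels, which depends on the deposited gene lengths, was the same in Control and after MGH-CP1. INPPL1 was highest, followed by AKT2, AKT1, INPP4B, RICTOR, PDPK1, PHLPP1 and PHLPP2. In neither condition did the libraries of neighbouring genes in this order overlap. The closest neighbours were PHLPP1 and PHLPP2 in Control, where the lower PHLPP1 library had 4.53 FPKM and the higher PHLPP2 library 4.44 FPKM. Before division by length, PHLPP2 had more fragments than PHLPP1 in both Control libraries (828 and 958 against 757 and 740). The deposited lengths were 8467 bases for PHLPP2 and 6401 bases for PHLPP1. The fragments behind a single value numbered from 383, for PHLPP2, to 5569, for INPPL1.

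AKT1 (ENSG00000142208, hg19 chr14:105235686-105262088, minus strand) encodes the most widely expressed of the AKT kinases. It had 20.7 and 20.8 FPKM in Control and 18.3 and 18.4 FPKM after MGH-CP1. Both MGH-CP1 libraries lay below both Control libraries, and the replicates were close to each other. The means were 20.7 ± 0.0586 (SD, n = 2) and 18.4 ± 0.0651 FPKM (SD, n = 2). Counting error alone spans more than the gap between replicates, with a 95% Poisson interval of 20.1 to 21.3 FPKM for Control replicate 1. The log2 difference was -0.16 (standard error 0.05, 95% interval -0.29 to -0.04, limma adjusted p = 0.0352), a fall in mean FPKM of 11.2%. Of all genes tested, 23.1% were called lower with a fall at least as large. The AKT1 call did not hold when any 1 library was left out. The adjusted p from limma was 0.0956 without Control replicate 1, 0.0981 without Control replicate 2, 0.120 without MGH-CP1 replicate 1 and 0.103 without MGH-CP1 replicate 2, and 0.0522 after thinning all libraries to equal depth.

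AKT2 (ENSG00000105221, hg19 chr19:40736224-40791443, minus strand), the isoform best known for its role in insulin signaling, had a higher FPKM than AKT1 in every library. The deposited lengths differed, at 5300 bases for AKT2 and 8396 bases for AKT1. Before division by length, AKT1 had more fragments in Control replicate 1 (4418 against 4201) and AKT2 had more in each other library. AKT2 had 31.1 and 34.1 FPKM in Control and 36.2 and 34.7 FPKM after MGH-CP1. The conditions did not overlap, although the higher Control library lay close to the lower MGH-CP1 library. The means were 32.6 ± 2.11 (SD, n = 2) and 35.4 ± 1.05 FPKM (SD, n = 2), and the log2 difference of 0.12 (standard error 0.06, 95% interval -0.02 to 0.26, limma adjusted p = 0.144) did not pass the test. It passed in 1 of 14 processing alternatives, without Control replicate 2, the higher of the Control libraries, where it was 0.18. Without Control replicate 1 the difference was 0.05, and with median-ratio scaling it was 0.06 (limma adjusted p = 0.402).

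The shares of AKT1 and AKT2 in the summed FPKM of both genes were also compared. Their size depends on the deposited lengths of both genes, which are the same for every library. AKT1 held 39.9% and 37.8% in Control and 33.7% and 34.7% after MGH-CP1, and AKT2 the remainder. The conditions did not overlap in this share (p = 0.33 in a two-sided exact permutation test, which cannot go lower with these numbers). The sum of AKT1 and AKT2 was 51.8 and 54.9 FPKM in Control and 54.5 and 53.1 FPKM after MGH-CP1, where the conditions overlapped.

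**Figure D3:**
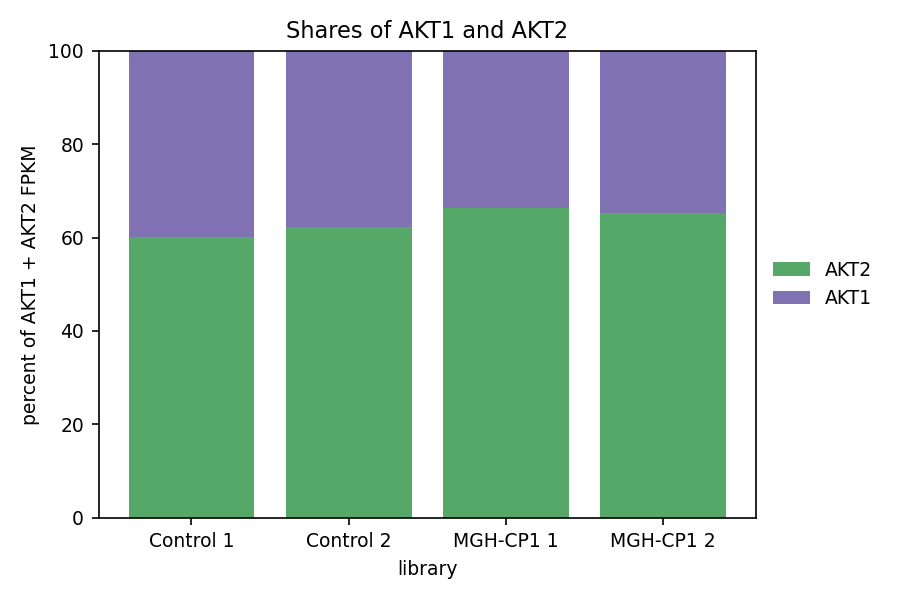
Share of AKT2 and AKT1 in the summed FPKM of both genes (percent, stacked from 0 to 100) in each library. AKT2 took 60.1% and 62.2% in Control and 66.3% and 65.3% after MGH-CP1.

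PDPK1 (ENSG00000140992, hg19 chr16:2587965-2653189, plus strand) encodes the kinase that phosphorylates the activation loop of AKT and of related kinases. It had 6.84 and 6.73 FPKM in Control and 6.03 and 5.99 FPKM after MGH-CP1. Each MGH-CP1 library was below each Control library, with means of 6.79 ± 0.0790 (SD, n = 2) and 6.01 ± 0.0260 FPKM (SD, n = 2). Counting error alone gives a 95% Poisson interval of 6.36 to 7.11 FPKM for Control replicate 2. That interval meets the one of MGH-CP1 replicate 1, 5.62 to 6.47 FPKM. The log2 difference of -0.15 (standard error 0.07, 95% interval -0.32 to 0.01, limma adjusted p = 0.113) did not pass the test. It passed in 2 of 14 processing alternatives, median-ratio scaling at -0.20 (limma adjusted p = 0.0489) and quantile normalization at -0.22 (limma adjusted p = 0.0339). After thinning all libraries to equal depth the difference was -0.13 (limma adjusted p = 0.183). PDPK1 shares sequence with a near-identical copy. Of the 100-base stretches of its GENCODE transcripts, 24.3% also occurred in transcripts of other genes. The pseudogene PDPK2P held 22.3% of the stretches, and ERVK13-1 also held some. The row named PDPK2 in the deposited table had 1.09 and 0.953 FPKM in Control and 1.12 and 1.05 FPKM after MGH-CP1, or 4.46% to 5.76% of the fragments of both genes together, so the level of PDPK1 is uncertain to the extent that its reads were split between them.

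RICTOR (ENSG00000164327, hg19 chr5:38938021-39074510, minus strand) encodes the subunit that defines mTOR complex 2. It had 10.6 and 10.2 FPKM in Control and 10.9 and 10.6 FPKM after MGH-CP1. The lower MGH-CP1 library lay just above the higher Control library, and the means were 10.4 ± 0.268 (SD, n = 2) and 10.7 ± 0.221 FPKM (SD, n = 2). The log2 difference was 0.05 (standard error 0.06, 95% interval -0.10 to 0.19, limma adjusted p = 0.566), and its sign turned with median-ratio scaling. The ratio of RICTOR to RPTOR, the corresponding subunit of mTOR complex 1, was 0.678 and 0.680 in Control and 0.718 and 0.732 after MGH-CP1. RICTOR overlaps OSMR, on the opposite strand, over 7678 bases of the genome. OSMR held 5765 to 7406 fragments per library and was called higher (log2 difference 0.25, limma adjusted p = 0.00612), and whether fragments were counted by strand is not given in the sources used here.

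INPPL1 (ENSG00000165458, hg19 chr11:71934745-71950149, plus strand) removes a phosphate from the phosphoinositide made by class I PI3K. It had 41.8 and 43.6 FPKM in Control and 65.4 and 62.5 FPKM after MGH-CP1. The gap between the conditions was several times the difference between replicates, and the means were 42.7 ± 1.23 (SD, n = 2) and 63.9 ± 2.02 FPKM (SD, n = 2), a rise in mean FPKM of 49.8%. The log2 difference was 0.57 (standard error 0.05, 95% interval 0.45 to 0.69, limma adjusted p = 9.38e-05). A rise at least as large was called for 8.28% of all genes tested. Of the 14 processing alternatives, 13 left INPPL1 called, with log2 differences from 0.52 to 0.60. Although the MGH-CP1 libraries were the shallower ones, INPPL1 had 5569 and 5201 fragments in them against 5040 and 5260 in Control.

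INPP4B (ENSG00000109452, hg19 chr4:142944313-143768585, minus strand) acts on the lipid product of INPPL1 and is known as a tumor suppressor lost in many basal-like breast cancers. It had 14.1 and 12.8 FPKM in Control and 12.4 and 12.3 FPKM after MGH-CP1. Both MGH-CP1 libraries lay below both Control libraries, by less than the Control libraries differed from each other. The means were 13.4 ± 0.959 (SD, n = 2) and 12.3 ± 0.0870 FPKM (SD, n = 2), and the log2 difference of -0.11 (standard error 0.07, 95% interval -0.27 to 0.04, limma adjusted p = 0.200) did not pass the test. The ratio of INPPL1 to INPP4B was 2.96 and 3.41 in Control and 5.27 and 5.09 after MGH-CP1.

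PHLPP2 (ENSG00000040199, hg19 chr16:71671738-71758604, minus strand) encodes a phosphatase of the hydrophobic motif of AKT. It had 3.84 and 4.44 FPKM in Control and 2.51 and 2.73 FPKM after MGH-CP1. Both MGH-CP1 libraries lay well below the lower Control library, and the means were 4.14 ± 0.420 (SD, n = 2) and 2.62 ± 0.156 FPKM (SD, n = 2). The log2 difference was -0.50 (standard error 0.10, 95% interval -0.73 to -0.27, limma adjusted p = 0.00385), a fall in mean FPKM of 36.6%. A fall at least as large was called for 6.08% of all genes tested. PHLPP2 passed in 11 of the 13 alternatives that tested it, with log2 differences from -0.65 to -0.42. Without any filter on low values the limma adjusted p was 0.0508.

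PHLPP1 (ENSG00000081913, hg19 chr18:60382672-60647666, plus strand), the paralog of PHLPP2, had 4.65 and 4.53 FPKM in Control and 3.72 and 4.96 FPKM after MGH-CP1. It was the 1 gene of the 8 whose conditions overlapped, since 1 MGH-CP1 library lay below and the other above both Control libraries. Counting error alone gives 95% Poisson intervals of 3.38 to 4.09 and 4.56 to 5.39 FPKM for the MGH-CP1 libraries, which do not meet. The means were 4.59 ± 0.0805 (SD, n = 2) and 4.34 ± 0.874 FPKM (SD, n = 2), and the log2 difference was -0.07 (standard error 0.12, 95% interval -0.34 to 0.19, limma adjusted p = 0.614). Without MGH-CP1 replicate 1 the difference was 0.09, of the opposite sign. The ratio of PHLPP2 to PHLPP1 was 0.827 and 0.979 in Control and 0.675 and 0.551 after MGH-CP1, and the sum of both genes was 8.49 and 8.97 FPKM in Control and 6.24 and 7.69 FPKM after MGH-CP1.

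**Figure D4:**
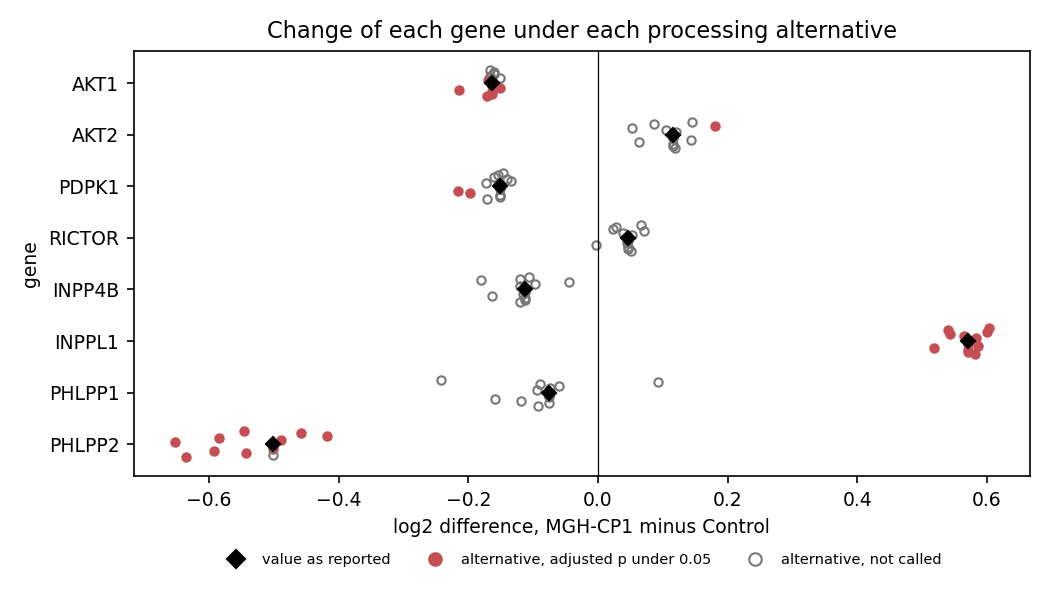
Log2 difference, MGH-CP1 minus Control, of each gene as reported (diamonds) and under each processing alternative that tested it (circles, filled in red at an adjusted p under 0.05). INPPL1 stayed between 0.52 and 0.60 and PHLPP2 between -0.65 and -0.42, whereas RICTOR and PHLPP1 had values on both sides of 0.

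RefSeq promoters, from 250 bases before to 50 bases after a transcription start on GRCh38.p14, were found for all 8 genes. They are printed 5′ to 3′ on the strand of the gene for INPPL1 and PHLPP2, which changed most, and for PHLPP1, whose only listed promoter holds the core of the TEAD binding motif. Capitals mark that core (GGAATG, or CATTCC on the other strand) and the GC box bound by SP factors (GGGCGG or CCGCCC), and no marked stretches overlap. The INPPL1 promoter shown is the most upstream of 3 listed starts, at chr11:72223313-72223612 on the plus strand. The PHLPP1 promoter lies at chr18:62715291-62715590 on the plus strand and that of PHLPP2 at chr16:71724652-71724951 on the minus strand.
INPPL1: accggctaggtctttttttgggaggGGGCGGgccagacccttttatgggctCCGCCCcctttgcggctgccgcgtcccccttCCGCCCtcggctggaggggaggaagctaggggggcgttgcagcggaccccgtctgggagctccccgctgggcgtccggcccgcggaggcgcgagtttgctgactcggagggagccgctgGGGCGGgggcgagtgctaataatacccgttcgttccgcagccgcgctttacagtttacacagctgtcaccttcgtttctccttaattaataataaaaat
PHLPP1: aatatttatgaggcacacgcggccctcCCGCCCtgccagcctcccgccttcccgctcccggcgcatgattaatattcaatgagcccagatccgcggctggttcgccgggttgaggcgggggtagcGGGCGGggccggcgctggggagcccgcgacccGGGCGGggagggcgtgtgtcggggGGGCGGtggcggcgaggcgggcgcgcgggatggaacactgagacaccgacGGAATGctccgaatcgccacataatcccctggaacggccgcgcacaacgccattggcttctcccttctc
PHLPP2: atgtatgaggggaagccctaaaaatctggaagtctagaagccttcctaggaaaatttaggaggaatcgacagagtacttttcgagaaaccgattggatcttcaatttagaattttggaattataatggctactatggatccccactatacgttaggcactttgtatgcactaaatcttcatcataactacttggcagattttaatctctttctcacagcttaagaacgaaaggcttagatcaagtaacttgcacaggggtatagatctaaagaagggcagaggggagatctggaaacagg

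The INPPL1 promoter above held 4 GC boxes and no GGAATG, with a GC content of 63.3%, and neither did the 2 further INPPL1 promoters hold GGAATG. The PHLPP1 promoter had a GC content of 69.3%, 4 GC boxes and a GGAATG at position -19 from the listed start. The PHLPP2 promoter, at 39.7% GC, held neither motif. Beyond PHLPP1, GGAATG occurred among the 8 genes in 1 of 6 INPP4B promoters, at position -193, and in none of the promoters of AKT1, AKT2, PDPK1 and RICTOR. Of all 35116 RefSeq promoters of this length, 14.0% held GGAATG and 45.0% the GC box, on either strand. The FOXO motif GTAAACA, on either strand, occurred in no promoter of the 8 genes and in 3.42% of all promoters. The AP-1 motif TGACTCA, on either strand, likewise occurred in no promoter of the 8 genes and in 4.95% of all. A match describes these letters in this window and is not evidence of binding, and TEAD is known to act largely from distal enhancers.

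The genes around AKT included calls in both directions. Of 101 tested genes on 9 pathway lists, leaving out the 8 genes themselves, 26 were called higher and 29 lower, and 46 did not pass. Their median log2 difference was -0.06. These counts lie near the background of 27.1% higher and 23.8% lower among all genes tested, against which the counts of each list below should also be read. With the 7 of the 8 genes that are on a list included (PDPK1 is on none), 27 of 108 were called higher and 31 lower.

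**Figure D5:**
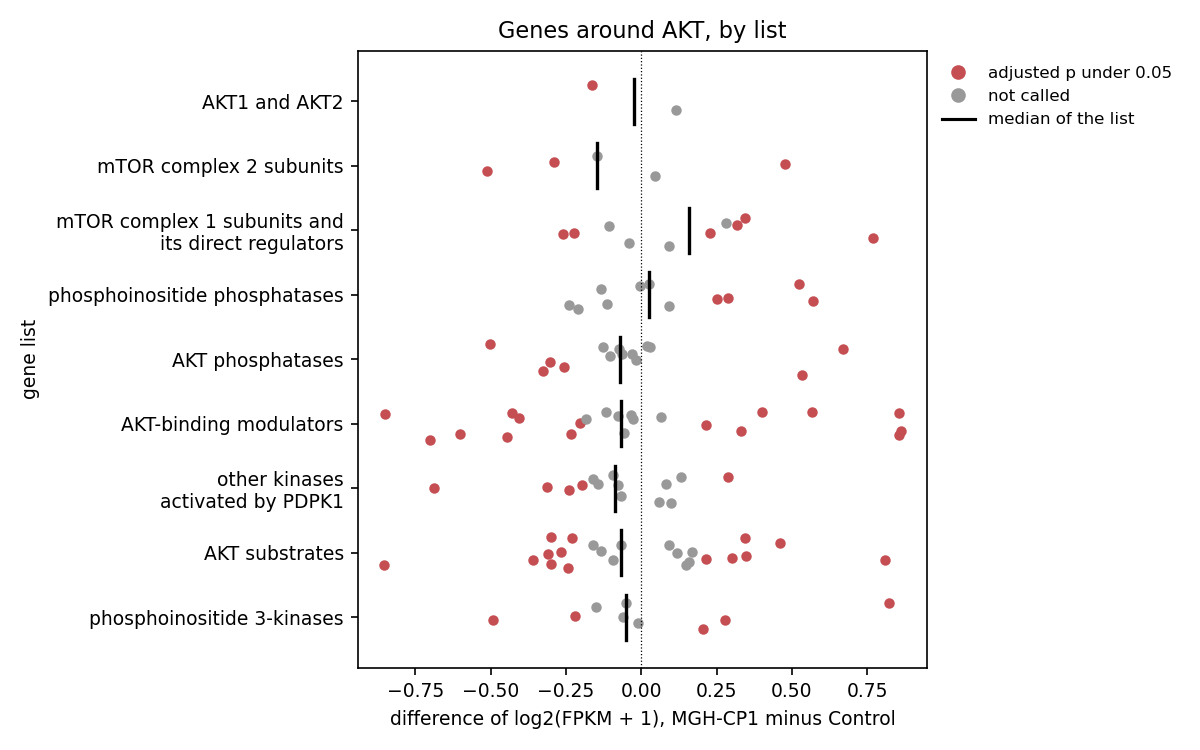
Difference of log2(FPKM + 1), MGH-CP1 minus Control, of each tested gene on the 9 pathway lists (points, red at an adjusted p under 0.05), with a black line at the median of each list. Every list held called genes, on both sides of 0 in 7 of the 9 lists, and the medians lay between -0.15 and 0.16.

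In mTOR complex 2, 1 of 5 tested subunits was called higher and 2 lower, with a median of -0.15. MTOR, the kinase subunit of both mTOR complexes, fell from 14.7 to 9.98 FPKM (log2 difference -0.51, limma adjusted p = 0.000589). MAPKAP1, which encodes the SIN1 subunit, fell from 45.7 to 37.2 FPKM (-0.29, limma adjusted p = 0.00255), whereas PRR5L, which encodes a RICTOR-binding protein, rose from 4.85 to 7.14 FPKM (0.48, limma adjusted p = 0.00209). RICTOR, at 0.05, was the least changed of the 5 tested subunits, and differences between these genes were not tested.

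Among mTOR complex 1 subunits and regulators, 4 of 10 tested genes were called higher and 2 lower, with a median of 0.16. DDIT4, an inhibitor of mTOR complex 1 that is induced by stress, rose from 38.8 to 66.7 FPKM (log2 difference 0.77, limma adjusted p = 8.05e-05). TSC2, a GTPase-activating protein for RHEB and a substrate of AKT, rose from 15.4 to 19.8 FPKM (0.34, limma adjusted p = 0.00149), and its partner TBC1D7 rose by 0.32 (limma adjusted p = 0.0490). The TBC1D7 call was lost with a pseudocount of 0.1 (limma adjusted p = 0.0502), quantile normalization (0.0597), median-ratio scaling (0.0760) and no filter on low values (0.249). It was also lost without the trend (limma adjusted p = 0.0917) and without shared variance (0.338). It held with the replicate block (limma adjusted p = 0.0313), a minimum mean FPKM of 5 (0.0273), voom (0.0178) and thinning (0.0299). Without Control replicate 1 the TBC1D7 difference was 0.17. RHEB, the GTPase that activates mTOR complex 1, fell from 130 to 111 FPKM (-0.22, limma adjusted p = 0.00365). SESN2, a stress-induced inhibitor of the complex, fell by 0.26 (limma adjusted p = 0.0354). Among other settings, the SESN2 call was lost without a filter on low values (limma adjusted p = 0.118).

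Of 11 tested phosphoinositide and inositol phosphate phosphatases, 4 were called higher, INPPL1 with the largest difference, 0 lower, and 7 did not pass. The median of the 11 was 0.03. At an unadjusted p under 0.05 from limma, 4 were higher and 1 lower. INPP5E, which acts in the primary cilium, rose from 11.8 to 17.5 FPKM (log2 difference 0.52, limma adjusted p = 0.000489). SYNJ2 rose from 32.2 to 39.6 FPKM (0.29, limma adjusted p = 0.00199) and INPP5K by 0.25 (limma adjusted p = 0.0298). Among other settings, the INPP5K call was lost with median-ratio scaling (limma adjusted p = 0.0599) and without a filter on low values (0.126).

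Of 14 tested AKT phosphatase genes, the PHLPP pair and the subunits of PP2A, 2 were called higher and 4 lower, with a median of -0.07. The regulatory subunits PPP2R5B and PPP2R2C rose, from 9.53 to 15.8 FPKM (log2 difference 0.67, limma adjusted p = 0.000169) and from 2.24 to 3.69 FPKM (0.53, limma adjusted p = 0.00383). The catalytic subunit PPP2CA fell from 44.0 to 34.9 FPKM (-0.32, limma adjusted p = 0.00188), the scaffold subunit PPP2R1B by 0.30 (limma adjusted p = 0.00502) and the regulatory subunit PPP2R5E by 0.26 (limma adjusted p = 0.0204). PHLPP2 had the largest fall on this list.

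Among genes whose products bind or modify AKT, 7 of 22 tested were called higher and 8 lower, with a median of -0.07. The pseudokinase genes TRIB2 and TRIB1 rose, from 17.3 to 32.3 FPKM (log2 difference 0.86, limma adjusted p = 9.38e-05) and from 2.71 to 5.73 FPKM (0.86, limma adjusted p = 0.000167). TRIB3, of the same family, did not pass (17.3 to 16.6 FPKM, -0.06, limma adjusted p = 0.446). The arrestin ARRB1 rose from 14.1 to 26.5 FPKM (0.86, limma adjusted p = 9.38e-05). The related arrestin ARRB2 fell from 13.8 to 9.97 FPKM (-0.43, limma adjusted p = 0.000771). FKBP5, a scaffold that brings PHLPP to AKT, fell from 17.4 to 9.22 FPKM (-0.85, limma adjusted p = 4.75e-05). SKP2, of a ubiquitin ligase of AKT, fell from 15.6 to 9.20 FPKM (-0.70, limma adjusted p = 0.000239), and the chaperone HSP90AA1 from 556 to 366 FPKM (-0.60, limma adjusted p = 7.65e-05).

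PDPK1 also phosphorylates other kinases, of which 1 of 14 tested was called higher and 4 lower, with a median of -0.09. SGK1, which like AKT depends on mTOR complex 2, fell from 3.57 to 1.84 FPKM (log2 difference -0.69, limma adjusted p = 0.000805). The protein kinase C genes PRKCE and PRKCI fell by 0.31 (limma adjusted p = 0.0346) and 0.24 (limma adjusted p = 0.0191), and RPS6KA2 rose by 0.29 (limma adjusted p = 0.0233).

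Of 23 tested genes for AKT substrates, 6 were called higher and 8 lower, with a median of -0.07. FOXO4, a transcription factor that AKT keeps out of the nucleus, rose from 2.66 to 5.42 FPKM (log2 difference 0.81, limma adjusted p = 0.000376), the related FOXO1 rose by 0.35 (limma adjusted p = 0.0327), and the cell cycle inhibitor CDKN1A rose from 45.0 to 62.3 FPKM (0.46, limma adjusted p = 0.000298). EZH2, a histone methyltransferase, fell from 30.3 to 16.3 FPKM (-0.85, limma adjusted p = 2.79e-05), TBC1D1 by 0.36 (limma adjusted p = 0.00210) and CHUK by 0.31 (limma adjusted p = 0.00881). Among the PI3K genes, of which PIK3R2 was not tested, 3 of 9 tested were called higher and 2 lower, with a median of -0.05. The largest rise there was that of the class II kinase PIK3C2B, from 1.87 to 4.07 FPKM (0.82, limma adjusted p = 0.000299), and PIK3CD and PIK3C3 rose by 0.28 (limma adjusted p = 0.0207) and 0.20 (limma adjusted p = 0.0498). The regulatory subunits PIK3R3 and PIK3R4 fell by 0.49 (limma adjusted p = 0.00589) and 0.22 (limma adjusted p = 0.0491).

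For each of the 8 genes, the pattern over the 4 libraries was set against the 101 tested list genes outside the 8, by the Euclidean distance of log2(FPKM + 1) deviations from the gene's own mean. PIK3R1 was nearest to both AKT1 (distance 0.0151) and PDPK1 (0.0149). AKT1S1 was nearest to AKT2 (0.0639), PRKCZ to RICTOR (0.0292) and RPS6KA3 to INPP4B (0.0407). INPPL1 was nearest to INPP5E (0.0909) and next to PPP2R5B (0.105), and PHLPP2 to PIK3R3 (0.0828) and next to ARRB2 (0.130). PHLPP1, whose MGH-CP1 libraries differed, was nearest to PPP2R5A (0.114). With 4 libraries, such distances describe these libraries only.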

How the data were processed

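RNA of MDA-MB-231 cells after 24 h with MGH-CP1 or its vehicle was sequenced as paired-end reads in 4 libraries. Per the submitters' processing notes, CASAVA 1.8 and STAR were used with the hg19 genome. The counting tool and its strand setting are not given in the sources used here. The authors deposited FPKM for each gene with its coordinates and length. FPKM multiplied by gene length gave whole multiples of a single step for 100% of the values (within 0.01 fragments), so fragment numbers could be recovered.

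The 12080 genes whose FPKM averaged 1 or more across the 4 libraries were compared on log2(FPKM + 1) with limma 3.58.1 in R 4.3.3 (lmFit, eBayes with a trend, two-sided, Benjamini-Hochberg adjustment over all genes tested, threshold 0.05). A difference on this scale understates the change of genes with low FPKM. Intervals of single libraries are exact Poisson intervals and cover counting error only. The study's methods name Student's test for each gene without giving a scale, filter or adjustment, and the alternative without shared variance is only the closest to it here. Named genes are the 8 and up to 3 called genes per list and direction whose libraries do not overlap. Also named are the 2 nearest list genes to each of the 8, overlapping or near-identical genes, and check genes. RPTOR, TRIB3 and the markers serve as comparisons. As checks of the treatment, CYR61 (-0.75), CTGF (-0.66) and ANKRD1 (-0.66), known TEAD–YAP targets, all fell in log2 difference. PIK3R2 and PPP2R5A had 2 rows each, of which the row matching the gene identifier was used. For PIK3R2 that row held 3 and 2 fragments in Control and 0 after MGH-CP1, so PIK3R2 was not tested. Its other row was not examined. The 8 genes and the lists were chosen with earlier results of these data known. The script was tested on simulated data. Alternatives were another pseudocount (0.1), no filter or a minimum mean FPKM of 5, quantile normalization, scaling by median ratios, limma without trend or without shared variance, a block for the replicate number, voom on recovered fragments, and leaving out each library. Thinning to equal depth was chosen after the data were seen. Promoters are those of RefSeq on GRCh38.p14, and shared sequence was taken from GENCODE release 29 transcripts. No protein sequences were used. Results of some genes on the lists are not reported here.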

Additional observations from a re-analysis of the deposited data

How the results depend on the processing

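With 2 libraries per condition and fewer fragments after MGH-CP1, small differences such as that of AKT1 lie at the edge of what these data resolve. Where a value moved, the cause was not tested unless the setting names it. Without shared variance, where each gene rests on its own 4 libraries, limma called 0 of the 8 genes higher and 0 lower, against 1 and 3 at an unadjusted p under 0.05 (adjusted p 0.0555 for AKT1 at -0.16, 0.0631 for INPPL1 at 0.57 and 0.101 for PHLPP2 at -0.50), 0 higher and 0 lower among the pathway list genes, against 22 and 24 unadjusted, and 9 higher and 4 lower of all genes, with 4947 at an unadjusted p under 0.05. Without a filter on low values, PHLPP2 lost its call (-0.50, adjusted p 0.0508), 1 of the 8 genes was called lower, 16 list genes were higher and 19 lower, and 1844 of all genes were lower, against 27, 31 and 2869. The count of the 8 genes called lower was also 1 with a mean FPKM of at least 5, where PHLPP1 and PHLPP2 were not tested, without the trend (AKT1 -0.16, adjusted p 0.0633) and after thinning (AKT1 -0.15, adjusted p 0.0522). PDPK1 gained a call with median-ratio scaling (-0.20) and quantile normalization (-0.22). RICTOR turned to -0.0032 with median-ratio scaling. With each library left out in turn, AKT1 ranged from -0.17 to -0.16, AKT2 from 0.052 to 0.18 and PHLPP1 from -0.24 to 0.093. The 8 genes gave 1 to 2 called higher and 1 called lower, and the list genes 17 to 23 called higher, with 17 without MGH-CP1 replicate 1. With the replicate block, AKT1 (-0.16, adjusted p 0.0361), INPPL1 (0.57, adjusted p 1.08e-05) and PHLPP2 (-0.50, adjusted p 0.00166) stayed called and no other of the 8 gained a call. Of the other named genes PIK3R4 lost its call (adjusted p 0.0533). Same-numbered libraries deviated together with r = 0.08 over 12080 genes and 2 pairs. With 2 libraries per condition the deviations mirror each other, so this value cannot tell whether same-numbered libraries share more than a number. Over the 37 other named genes, 412 of 509 refits kept the call, 97 lost it and 0 reversed.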
